A study of Mus musculus with 24 samples.

Results

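Collagens and structural matrix proteins were followed as a group of 42 named genes: 17 collagen chains, 10 genes of elastic fibres and fibronectin, 3 lysyl oxidases, 6 small leucine-rich proteoglycans and 6 matricellular genes including versican. The members were taken by gene name from a table of 13479 genes. A row was found for 41 of the 42, the exception being Ogn, and all 41 passed the filter on low counts that left 11337 genes for testing. The cells were primary mouse dermal fibroblasts at passage 5. They came from NIK knockout mice (KO), from mice labelled NIK X mut (MUT) and from wild-type mice (WT), which the series' text calls littermates. What that mutation alters is not given. Cells were left untreated or were exposed for 6 or 24 h to 100 ng/ml of TWEAK, a cytokine of the TNF family that acts through the receptor Fn14. Each time point had 2 KO, 2 MUT and 4 WT libraries, 24 in all, made by a bulk form of MARS-seq that counts transcripts from their 3′ ends by unique molecular identifiers (UMIs). The question put to these genes was which of them fell by 24 h of TWEAK, and whether that fall differed without NIK, the kinase encoded by Map3k14.

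Fibroblasts build the dermis from fibrillar collagens, which assemble as triple helices, are trimmed outside the cell and are crosslinked by lysyl oxidases. Small leucine-rich proteoglycans and minor collagens set the width of the fibrils, elastic fibres form from elastin on a scaffold of fibrillins and fibulins, and matricellular proteins such as thrombospondins and SPARC act on cells and on assembly rather than as load-bearing fibres. NIK is the kinase that starts the non-canonical NF-kB pathway, in which the p100 product of Nfkb2 is processed and pairs with RelB.

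Libraries held 889863 to 4342981 UMIs. Levels are given as CPM (UMIs scaled to a common library total) after normalisation by TMM, and since 1 UMI marks 1 captured 3′ end they need no division by gene length. Map3k14 had 1, 1 and 2 UMIs in KO at 0, 6 and 24 h with the libraries of a group summed, against 198, 174 and 291 UMIs in MUT and 207, 285 and 494 UMIs in WT. Relb was higher at 6 h than untreated in all genotypes, by 1.65 ± 0.22 (log2 change ± SE, adjusted p = 0.000737) in KO, 3.08 ± 0.21 (adjusted p = 1.19e-08) in MUT and 2.54 ± 0.15 (adjusted p = 1.531e-10) in WT. The fibroblast markers, 8 genes of which 4 are members, summed to 12300 to 19800 CPM per library. A row was found for 4 of 5 endothelial markers, without Pecam1 (7.62 to 44.6 CPM, the highest in WT at 24 h), for 3 of 7 keratinocyte markers (4.11 to 23.7 CPM) and for 4 of 6 leukocyte markers, without Ptprc (7.97 to 23.4 CPM). All 7 skeletal muscle and pericyte markers had a row and summed to 104 to 456 CPM.

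The libraries fell into sets that no label names. On the first principal component WT replicates 1 and 2 lay with the KO libraries, between -39.8 and -6.37, and WT replicates 3 and 4 with the MUT libraries, between 6.69 and 41.3. They are referred to as library sets. WT replicate 1 also had the lowest share of its UMIs in the 41 members among the WT libraries at each time, at 3.97%, 3.24% and 2.99% at 0, 6 and 24 h. Values within each library set and without WT replicate 1 are given where they bear on a result. The labels name no untreated library at 6 or 24 h, so time in culture and TWEAK cannot be told apart, nor can fewer cells of a type and less RNA per cell. Whether replicates were different mice is not given either, so p-values measure the spread between libraries.

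Matrix transcripts were among the most abundant in untreated WT fibroblasts. Sparc, which encodes a collagen-binding matricellular protein, averaged 10260 ± 951 CPM (SD, n = 4) and ranked 1 among all genes. Bgn, encoding the proteoglycan biglycan, averaged 7754 ± 945 CPM and ranked 2, and Col1a2, the second chain of type I collagen, averaged 7636 ± 1439 CPM and ranked 3. These neighbours overlapped in their spread. Fn1 (fibronectin) followed at 4604 ± 1358 CPM, rank 10. At the other end, Col15a1 (8.39 ± 7.54 CPM), Col14a1 (7.22 ± 2.25 CPM) and Lum, which encodes lumican (2.98 ± 2.33 CPM), were the lowest members. Together the 41 genes took 5.22%, 5.41% and 4.84% of UMIs in KO at 0, 6 and 24 h, 5.83%, 5.89% and 4.90% in MUT, and 5.20%, 5.17% and 3.95% in WT, where the SD over 4 libraries was 0.822, 1.32 and 0.647 percentage points.

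**Figure D1:**
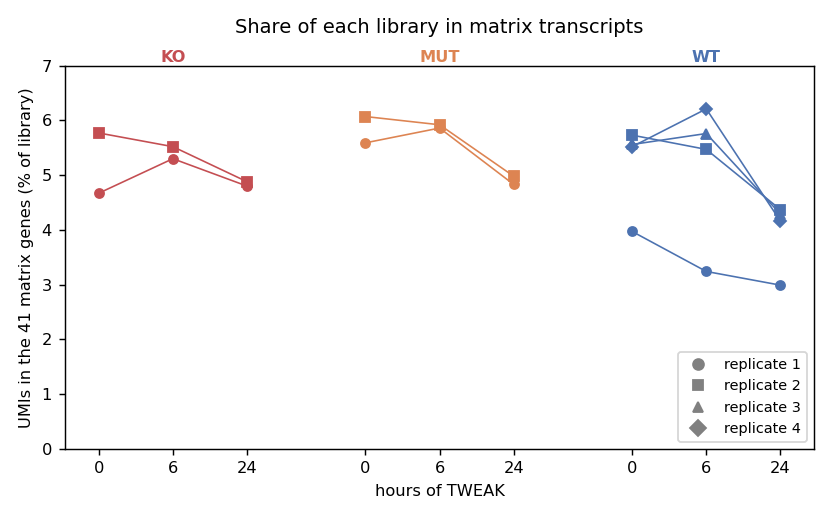
Share of each library's UMIs that fell in the 41 matrix genes (y axis, percent) by hours of TWEAK (x axis) in KO, MUT and WT; each point is 1 library and lines join libraries with the same replicate number. The 4 WT libraries at 24 h lie between 2.99% and 4.37%, below both KO libraries (4.80% and 4.88%) and both MUT libraries (4.83% and 4.98%), and WT replicate 1 is the lowest WT library at each time.

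Before treatment no member passed the test between genotypes. Of all genes, 0.00882% were lower and 0.00% higher in untreated KO than in untreated WT (edgeR quasi-likelihood test, Benjamini-Hochberg adjusted p under 0.05), and the gene that passed was Map3k14. For untreated MUT against untreated WT both shares were 0.00%. At an unadjusted p under 0.05 there was 1 member in KO (Emilin1, which encodes an elastic-fibre glycoprotein, -0.72 ± 0.33) and 4 in MUT (Fmod 0.81 ± 0.31, Col6a2 0.63 ± 0.28, Postn 0.93 ± 0.43 and Thbs2 0.54 ± 0.26), and DESeq2 called 0 in either comparison. Of all 11337 genes 537 in KO and 815 in MUT had such an unadjusted p.

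After 24 h of TWEAK, 10 of the 41 matrix genes fell in WT fibroblasts and 0 rose. Among all genes tested 3.19% fell and 3.68% rose. The 10 were the fibrillar chains Col11a1 and Col5a1, the short-chain collagen Col8a1, the elastic-fibre gene Fbln5, the crosslinking enzyme Lox, the proteoglycans Aspn and Fmod, and the matricellular genes Thbs1, Thbs2 and Sparc. The median log2 change of the members was -0.43, beside a median of 0.00 over all genes, and 33 of 41 were below 0. Same-numbered WT libraries deviated together, and with the replicate number as a block 22 members fell (7.59% of all genes) and 3 rose (8.02%). With the block kept to WT, chosen after seeing the data, 21 fell (8.10%) and 3 rose (8.67%). On the WT libraries of these times alone 4 fell (1.74% of all genes). Leaving out 1 library gave 5 without untreated replicate 4 (2.69%), 6 without untreated replicate 2 (2.06%) and 6 without replicate 1 at 24 h (2.52%). All 22 that fell in the blocked fit were lower in each of the 4 WT replicates, and their median in a replicate lay between -0.80 and -0.61. The blocked fit picks genes whose replicates agree, so these values are no further support for the falls. Of all 41 members 25 were lower in each WT replicate and 4 were higher in each. Cell-cycle genes moved over the same interval: the mean log2 CPM of 7 of them (Mki67, Top2a, Cdk1, Ccnb1, Ccna2, Mcm5 and Pcna) was 5.10, 4.95, 6.57 and 6.63 in WT replicates 1 to 4 at 24 h, against 4.07, 4.12, 6.04 and 5.95 before treatment, and their part in the result was not tested.

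**Figure D2:**
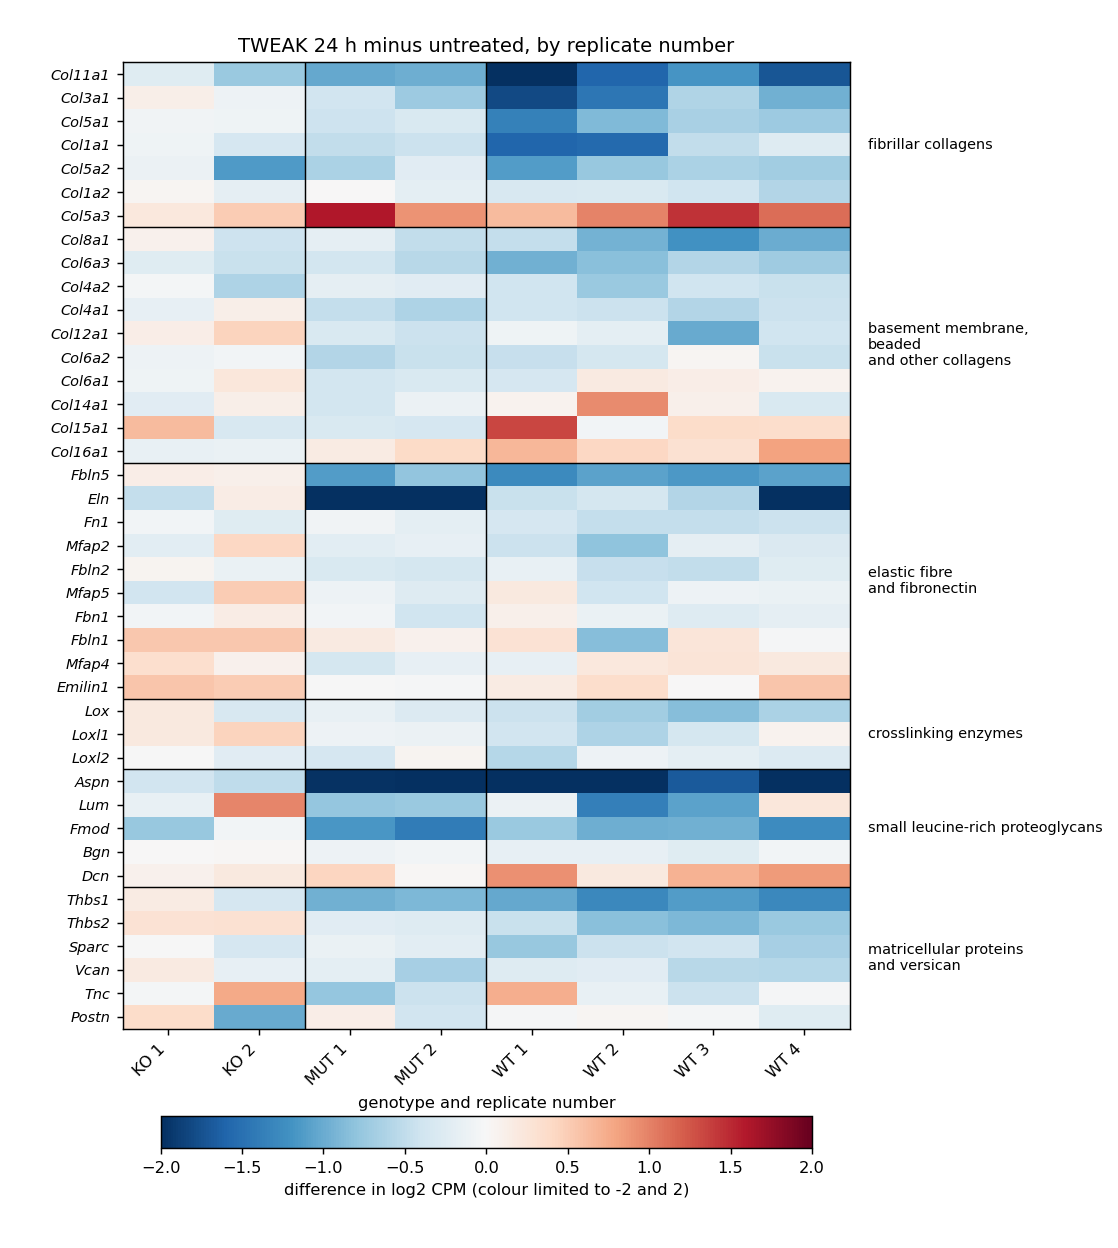
Difference in log2 CPM between 24 h of TWEAK and untreated libraries (colour, limited to -2 and 2) for the 41 members (rows, by structural role) and each replicate number of KO, MUT and WT (columns). The WT and MUT columns are mostly blue, with 31 to 36 of 41 members below 0 in each. Col5a3, Dcn and Col16a1 are above 0 in all of these columns, while each KO column has 22 members below 0. Columns subtract same-numbered libraries, which were not seen to pair in KO or MUT.

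Among the fibrillar collagens, 2 of 7 fell. Col11a1, a minor chain that nucleates thin fibrils (chromosome 3, 114030540 to 114220718, plus strand, GRCm38), had 5.58, 27.0, 32.6 and 34.5 CPM at 24 h, against 38.1, 82.7, 74.7 and 114.5 CPM untreated, in WT replicates 1 to 4. Every treated WT library lay below every untreated one, and the log2 change was -1.64 ± 0.41 (adjusted p = 0.0161). Col5a1, a type V chain that sits inside type I fibrils and limits their width, had 391, 756, 1027 and 907 CPM at 24 h, against 996, 1395, 1606 and 1505 CPM untreated. The ranges overlapped through replicate 1, whose untreated level was below the highest treated one, and the change was -0.84 ± 0.23 (adjusted p = 0.0297).

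The principal collagens of dermis did not pass without the block. Col1a1, the main chain of type I collagen, had 322, 465, 1065 and 1221 CPM at 24 h, against 968, 1365, 1494 and 1460 CPM untreated. It was lower in each replicate, by a larger margin in replicates 1 and 2, with a change of -0.78 ± 0.31 (adjusted p = 0.147), and of -0.96 ± 0.17 with the block (adjusted p = 0.000585). Within the library sets Col1a1 changed by -1.57 ± 0.22 in WT replicates 1 and 2 (adjusted p = 5.03e-05) and by -0.37 in replicates 3 and 4 (adjusted p = 0.386). The difference between the sets was not tested. Col3a1, the type III chain that accompanies type I in skin, had 130, 850, 1023 and 766 CPM at 24 h, against 455, 2329, 1546 and 1491 CPM untreated. Replicate 1 was far below the other WT libraries at both times, and the change was -1.07 ± 0.51 (adjusted p = 0.248), or -1.22 ± 0.16 with the block (adjusted p = 1.788e-05). Col1a2 had 4496, 6206, 6618 and 5693 CPM at 24 h, against 5591, 7668, 8701 and 8585 CPM untreated. It was lower in each replicate with overlapping groups, at -0.40 ± 0.12 with the block (adjusted p = 0.0244). Col5a2 also passed with the block (-0.81 ± 0.17, adjusted p = 0.00219). Its 24 h libraries, at 21.0 to 42.1 CPM, all lay below the untreated ones at 46.8 to 68.8 CPM.

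Of the 10 other collagens, Col8a1 fell without the block. It encodes a short-chain collagen of vessel walls and of some basement membranes (chromosome 16, 57624258 to 57754737, minus strand). Col8a1 had 74.1, 83.6, 56.6 and 78.8 CPM at 24 h, against 103, 161, 132 and 157 CPM untreated, with no overlap, and changed by -0.92 ± 0.20 (adjusted p = 0.00658). With the block 5 of the 10 fell and Col16a1, which encodes a fibril-associated collagen, rose (0.54 ± 0.15, adjusted p = 0.0202). Besides Col8a1 these were Col6a3 of beaded filaments (-0.77 ± 0.11), the type IV chains of basement membrane Col4a1 (-0.46 ± 0.10) and Col4a2 (-0.49 ± 0.11), and the fibril-associated Col12a1 (-0.44 ± 0.15). Col12a1 passed in 1 of 20 alternative settings, where its lowest adjusted p was 0.0474. With the block kept to WT it did not pass (adjusted p = 0.0828). Its untreated replicate 3 was at 225 CPM, the others at 140.3 to 147.3 CPM. Col4a1 had 874, 1281, 1351 and 1366 CPM at 24 h, against 1150, 1730, 2038 and 1832 CPM untreated, and its groups overlapped through replicate 1. The other type VI chains did not pass in either fit: Col6a1 changed by 0.05 ± 0.22 and Col6a2 by -0.26 ± 0.23.

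In the elastic-fibre and fibronectin group 1 of 10 fell. Fbln5 encodes fibulin-5, which brings elastin and lysyl oxidases to microfibrils (chromosome 12, 101746565 to 101819055, minus strand). Fbln5 had 308, 240, 141 and 125 CPM at 24 h, against 750, 507, 312 and 263 CPM untreated. The groups overlapped because the replicates differed in level, while each replicate was lower at 24 h than before, and the change was -1.17 ± 0.29 (adjusted p = 0.0153; -1.15 ± 0.11 and 2.856e-07 with the block). With the block Fbln2, Eln (elastin) and Fn1 passed too. Fn1 had 2165, 3229, 4039 and 4137 CPM at 24 h, against 2723, 4497, 5615 and 5582 CPM untreated. It was lower in each replicate, by -0.43 ± 0.11 with the block (adjusted p = 0.00842), against -0.44 ± 0.25 without it (adjusted p = 0.334). The microfibril gene Fbn1 changed by -0.14 ± 0.20 and did not pass in either fit.

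Of the 3 lysyl oxidases Lox fell, the enzyme that oxidises lysines of collagen and elastin for crosslinking. Lox had 699, 665, 612 and 687 CPM at 24 h, against 943, 1077, 1106 and 1063 CPM untreated. No treated library reached the lowest untreated one, and Lox changed by -0.65 ± 0.12 (adjusted p = 0.00161). Its paralogues Loxl1 (-0.28 ± 0.18, adjusted p = 0.411) and Loxl2 (-0.25 ± 0.23, adjusted p = 0.598) did not pass, and with the block neither did (adjusted p = 0.0939 for Loxl1 and 0.126 for Loxl2).

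Of the 5 small leucine-rich proteoglycans with a row, 2 fell. Aspn (asporin, a collagen-binding proteoglycan; chromosome 13, 49544443 to 49567565, plus strand) changed most among all 41 members. Aspn had 0.656, 7.99, 5.77 and 2.74 CPM at 24 h, against 15.99, 55.3, 20.4 and 21.2 CPM untreated. The treated libraries held 53 UMIs in all and lay below every untreated one, and the change was -2.67 ± 0.52 (adjusted p = 0.00207). Fmod (fibromodulin, which binds fibrils and modulates crosslinking) had 12.8, 26.4, 23.7 and 20.8 CPM at 24 h, against 22.1, 53.1, 46.7 and 50.8 CPM untreated. Replicate 1 was lowest at both times and made the groups overlap, and the change was -1.03 ± 0.28 (adjusted p = 0.0238). Dcn, which encodes decorin, went the other way: it had 355, 429, 226 and 200 CPM at 24 h, against 188, 376, 138 and 110 CPM untreated. Dcn was higher in each replicate, at 0.57 ± 0.29 (adjusted p = 0.292), and rose with the block (0.65 ± 0.15, adjusted p = 0.00430). Bgn changed by -0.16 ± 0.13 and did not pass.

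Of the matricellular genes and versican, 3 of 6 fell. Thbs1 encodes thrombospondin-1, which binds cells and activates latent TGF-beta (chromosome 2, 118111876 to 118127133, plus strand). Thbs1 had 1210, 894, 954 and 1006 CPM at 24 h, against 2460, 2193, 2066 and 2463 CPM untreated, without overlap, and changed by -1.18 ± 0.31 (adjusted p = 0.0206). Thbs2 encodes thrombospondin-2, a matricellular protein needed for regular collagen fibrils in mouse skin. Thbs2 had 305, 403, 380 and 467 CPM at 24 h, against 414, 723, 708 and 785 CPM untreated. The groups overlapped through replicate 1 alone, and Thbs2 changed by -0.76 ± 0.22 (adjusted p = 0.0369). Sparc had 5299, 8138, 7693 and 6929 CPM at 24 h, against 8991, 10950, 10080 and 11030 CPM untreated, again without overlap, a change of -0.55 ± 0.14 (adjusted p = 0.0190). Vcan (versican) passed with the block only (-0.41 ± 0.13, adjusted p = 0.0325), and Tnc (-0.11 ± 0.44) and Postn (-0.05 ± 0.36) passed in neither fit.

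**Figure D3:**
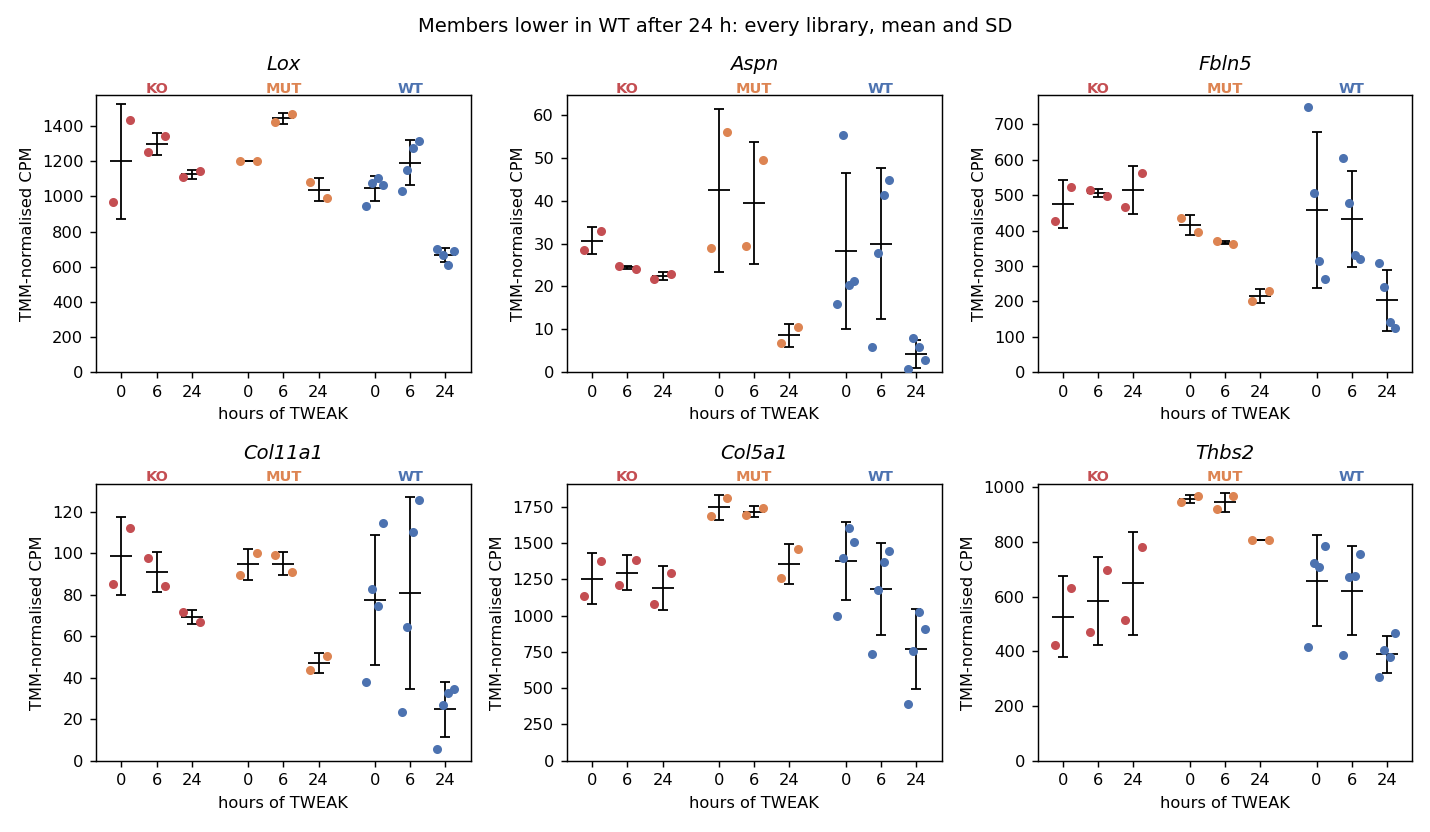
TMM-normalised CPM (y axis, from 0) of Lox, Aspn, Fbln5, Col11a1, Col5a1 and Thbs2 by hours of TWEAK (x axis) in KO, MUT and WT; each point is 1 library, and bars give the mean and SD (n = 2 in KO and MUT, n = 4 in WT). In WT the 24 h means are lower than the untreated ones in each panel, and for Lox the 4 WT libraries at 24 h (612 to 699 CPM) lie below all other libraries drawn.

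Of the 41 members, 8 (19.5%) had every WT library at 24 h below every untreated WT library, and 5.34% of all genes did. None had every treated WT library above, and 5.67% of all genes did. Without WT replicate 1, chosen after seeing the data, 16 members fell (2.85% of all genes) and 1 rose (3.20%). Within the library sets, 7 fell in WT replicates 1 and 2 (3.38% of all genes) and 5 in replicates 3 and 4 (2.0%), and Col11a1, Fbln5, Lox and Thbs1 fell in both. The authors' deposited table has 10 of the 41 lower and 0 higher at 24 h in WT, and 2.89% of its genes lower. Over 20 alternative settings Lox passed in all 20, Aspn and Col8a1 in 19, Col11a1 and Thbs1 in 18, Fbln5 in 16, Sparc in 14, Col5a1 in 13, Fmod in 12 and Thbs2 in 10. Aspn lies within the gene Cenpp on the opposite strand, and Thbs1, Lox and Col5a1 overlap non-coding genes of the opposite strand. The sources used here do not state whether counting used strand, so reads of such pairs cannot be told apart.

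The promoters of 4 members that fell in WT, and of Col5a3, which rose, are shown. The 4 are the members with CCAAT or its complement among the 8 that fell and had a promoter listed. Each is the 250 bases before the start that RefSeq gives (build GRCm38.p6), written 5′ to 3′ on the gene's strand. Capitals mark matches, on either strand, to the NF-kB consensus, to the AP-1 motif TGANTCA, to CCAAT and to TATAAA. The regions are chr13:49544193-49544442 (plus strand) for Aspn, chr3:114030290-114030539 (plus) for Col11a1, chr12:101819120-101819369 (minus) for Fbln5, chr17:14694263-14694512 (minus) for Thbs2 and chr9:20815068-20815317 (minus) for Col5a3.
Aspn: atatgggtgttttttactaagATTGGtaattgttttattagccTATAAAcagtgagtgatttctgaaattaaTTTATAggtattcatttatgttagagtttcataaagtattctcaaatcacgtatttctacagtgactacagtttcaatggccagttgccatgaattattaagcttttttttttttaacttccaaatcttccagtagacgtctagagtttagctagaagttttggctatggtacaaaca
Col11a1: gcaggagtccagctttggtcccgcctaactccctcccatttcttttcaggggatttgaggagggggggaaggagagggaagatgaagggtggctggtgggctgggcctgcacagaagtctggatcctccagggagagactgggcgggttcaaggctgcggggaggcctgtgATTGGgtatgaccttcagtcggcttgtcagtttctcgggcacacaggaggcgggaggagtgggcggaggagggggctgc
Fbln5: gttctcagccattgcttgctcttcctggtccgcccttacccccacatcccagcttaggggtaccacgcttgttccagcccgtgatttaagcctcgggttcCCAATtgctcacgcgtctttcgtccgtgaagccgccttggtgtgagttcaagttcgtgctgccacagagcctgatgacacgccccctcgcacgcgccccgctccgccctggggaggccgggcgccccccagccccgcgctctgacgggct
Thbs2: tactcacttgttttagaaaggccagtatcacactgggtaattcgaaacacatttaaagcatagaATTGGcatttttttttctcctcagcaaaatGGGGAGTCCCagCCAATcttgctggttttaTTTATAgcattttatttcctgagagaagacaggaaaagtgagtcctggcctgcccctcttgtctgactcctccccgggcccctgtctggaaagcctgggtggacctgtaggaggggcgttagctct
Col5a3: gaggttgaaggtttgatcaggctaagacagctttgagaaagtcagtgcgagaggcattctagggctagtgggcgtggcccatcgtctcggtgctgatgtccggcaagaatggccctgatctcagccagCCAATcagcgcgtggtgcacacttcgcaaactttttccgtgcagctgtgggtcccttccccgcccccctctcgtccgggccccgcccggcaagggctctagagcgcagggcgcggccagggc
The NF-kB consensus was found in Thbs2 among the 5 (GGGGAGTCCC, 156 to 147 bases before the start). CCAAT or its complement stood in all 5, which for the 4 that fell follows from which promoters are shown. TATAAA or its complement stood in Aspn, at 207 to 202 and 178 to 173 bases, and in Thbs2, at 126 to 121. A promoter was listed for 28 of the 42 members, 8 of them among the 10 that fell. The NF-kB consensus occurred in 3 of the 28 and 1 of the 8, and in 7.3% of all 32851 promoters of the table. CCAAT occurred in 10 of the 28 and 4 of the 8, against 33.8% of all promoters, TATAAA in 5 and 2, against 12.4%, and TGANTCA in 1 and 0, against 6.7%. The GC box GGGCGG, not capitalised, occurred in 15 and 4, against 32.7%. These are matches of letters and are not shown to be binding sites.

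At 6 h no member fell in any genotype in the fits without or with the block. In WT 0 members fell (2.06% of all genes did) and 1 rose (4.35%): Col5a3, another type V chain, made by fewer cell types than Col5a1 (chromosome 9, 20770050 to 20815067, minus strand). Col5a3 had 55.7, 132, 368 and 392 CPM at 6 h, against 32.0, 80.4, 88.7 and 103 CPM untreated, in WT replicates 1 to 4. It was higher in each replicate, with a far larger step in replicates 3 and 4, and changed by 1.66 ± 0.48 (adjusted p = 0.0391). Within the library sets Col5a3 rose in replicates 3 and 4 (1.99 ± 0.42, adjusted p = 0.00304) and did not pass in replicates 1 and 2. With the block 0 fell (4.90%) and 5 rose (6.69%), which were Col5a3 (1.44 ± 0.21, adjusted p = 7.257e-05), the microfibril-associated genes Mfap4 (0.79 ± 0.23) and Mfap5 (0.50 ± 0.16), Dcn (0.56 ± 0.15) and Tnc, which encodes tenascin-C (0.54 ± 0.15). With the block kept to WT 0 fell (5.36%) and 5 rose (7.25%). On the WT libraries of these times alone 0 rose (1.81%), and Col5a3 also did not pass without untreated replicate 1 or 3 or without replicate 3 or 4 at 6 h. Mfap4 was at 33.2, 100, 298 and 192 CPM at 6 h, against 22.8, 132, 121 and 71.4 CPM untreated, so it was lower in replicate 2 and higher in the others. Mfap4 overlaps the protein-coding gene Mapk7 on the opposite strand, and reads of this pair cannot be told apart either.

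Thbs1 took opposite courses at 6 h in the library sets. It had 1090, 1341, 4154 and 4753 CPM in WT replicates 1 to 4 at 6 h, against 2460, 2193, 2066 and 2463 CPM untreated. Replicates 1 and 2 were thus lower and replicates 3 and 4 higher, and within the sets the changes were -0.94 ± 0.17 (adjusted p = 0.00181) and 0.98 ± 0.17 (adjusted p = 0.000481). The difference between the sets was not tested. By 24 h Thbs1 was lower in both, at -1.14 ± 0.17 and -1.21 ± 0.17. Pooled over the 4 replicates Thbs1 did not pass at 6 h (0.31 ± 0.30, adjusted p = 0.664). The 7 muscle and pericyte markers together reached 155 to 170 CPM in KO, 317 to 337 CPM in MUT and 134 to 456 CPM in WT at 6 h, against 120 to 226 CPM, 186 to 188 CPM and 130 to 242 CPM untreated in KO, MUT and WT. Their part in the results at 6 h was not tested.

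**Figure D4:**
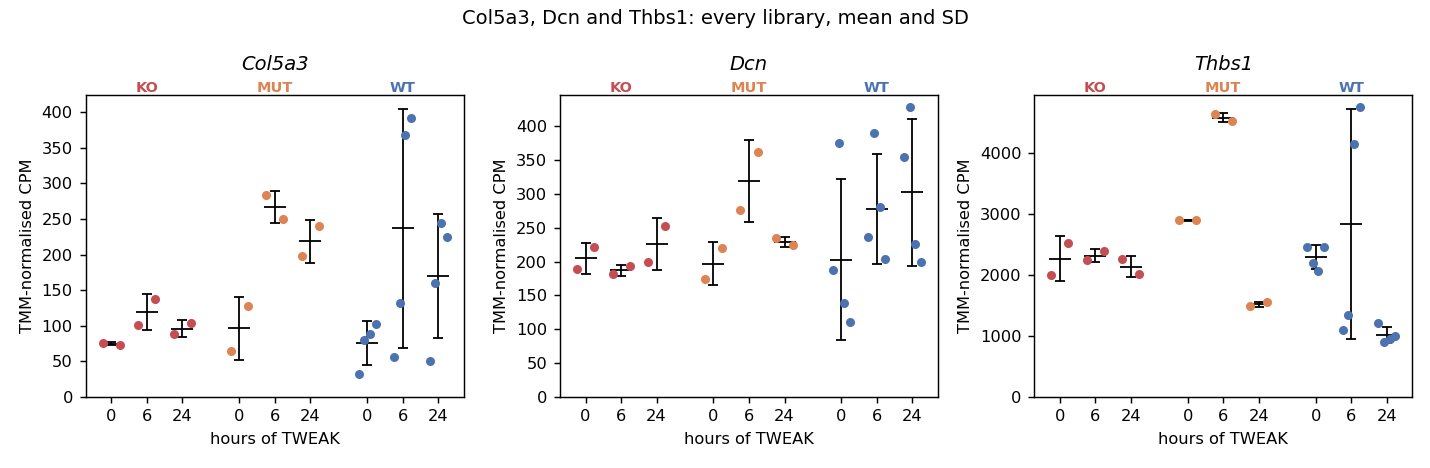
TMM-normalised CPM (y axis, from 0) of Col5a3, Dcn and Thbs1 by hours of TWEAK (x axis) in KO, MUT and WT; each point is 1 library, and bars give the mean and SD (n = 2 in KO and MUT, n = 4 in WT). Thbs1 at 6 h splits in WT, at 1090 and 1341 CPM in 2 libraries and 4154 and 4753 CPM in the other two, while the MUT libraries are at 4641 and 4527 CPM and both KO libraries lie inside their untreated range.

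In MUT fibroblasts, with 2 libraries a group, most matrix genes were lower at 24 h, and the calls depended on the block. Without the block 0 members fell (0.194% of all genes) and 0 rose (0.494%), and DESeq2 called 0. An unadjusted p under 0.05 was found for 6 of the 41 members and for 1183 of 11337 genes. The median of the members was -0.33, and 37 of 41 were below 0. All 10 genes that fell in WT had both MUT libraries at 24 h below both untreated ones, as did 27.2% of all genes. With the block 6 fell (1.46%) and 1 rose (1.68%), the fall being of Fmod, Aspn, Eln, Fbln5, Col4a1 and Col11a1 and the rise of Col5a3. Same-numbered MUT libraries were not seen to pair, and with the block kept to WT the counts were again 6 and 1 (1.70% and 2.04% of all genes). With the library sets as groups 5 fell (1.18%) and 0 rose (1.80%), and on the MUT libraries of these times alone 11 fell (5.87%) and 1 rose (5.41%). The mean log2 CPM of the 7 cell-cycle genes was 6.58 and 6.43 in MUT at 24 h, against 6.01 and 5.96 untreated, and the 7 muscle and pericyte markers summed to 104 and 107 CPM, against 186 and 188 CPM. The part of either in the result was not tested.

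The falls in MUT were largest for Aspn and Eln. Aspn had 6.70 and 10.5 CPM at 24 h, against 29.0 and 55.9 CPM untreated in MUT, a change of -2.27 ± 0.41 with the block (adjusted p = 0.00254) and of -2.28 ± 0.65 without it (adjusted p = 0.157). Eln had 8.12 and 10.8 CPM at 24 h, against 36.5 and 52.3 CPM untreated, without overlap (-2.21 ± 0.42 with the block, adjusted p = 0.00426). Elastin is the core protein of elastic fibres, and fibulin-5 is one of its partners. Fbln5 had 201 and 228 CPM at 24 h, against 435 and 395 CPM untreated (-0.95 ± 0.16 with the block, adjusted p = 0.00116). Fmod had 25.05 and 35.3 CPM at 24 h, against 57.0 and 93.9 CPM untreated (-1.30 ± 0.20, adjusted p = 0.000754). Col11a1 had 43.8 and 50.5 CPM at 24 h, against 89.5 and 100.1 CPM untreated, and Thbs1 had 1492 and 1551 CPM, against 2895 and 2903 CPM. These libraries did not overlap either, but only Col11a1 passed with the block (adjusted p = 0.0198, and 0.196 for Thbs1). Lox had 1085 and 992 CPM at 24 h, against 1201 and 1202 CPM untreated, and did not pass (-0.21 ± 0.17, adjusted p = 0.740).

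Of the 41 members 26 (63.4%) had both MUT libraries at 24 h below both untreated ones, as did 27.2% of all genes. At 6 h in MUT 0 members fell (0.485%) and 0 rose (1.50%), and DESeq2 called 0. An unadjusted p under 0.05 was found for 1 of the 41 members and for 1531 of 11337 genes. With the block 0 fell (3.28% of all genes) and Col5a3, Dcn and Mfap5 rose (4.24%), and with the block kept to WT 0 fell (3.64%) and Col5a3 and Dcn rose (4.69%). With the library sets as groups 2 rose (4.38%), and on the MUT libraries of these times alone 8 rose (7.61%). Col5a3 had 283 and 251 CPM at 6 h, against 64.7 and 128 CPM untreated in MUT.

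In KO fibroblasts no member passed the test at either time. At 24 h 0 fell and 0 rose, as did 0.00% of all genes in each direction, 0 members had an unadjusted p under 0.05 (382 of all genes did) and DESeq2 called 0 members. With the block the counts of members were also 0 and 0 (0.00% and 0.0353% of all genes), while 4 of the 41 had an unadjusted p under 0.05, as did 628 of 11337 genes. The median of the members was -0.03, with 22 of 41 below 0. At 6 h 0 fell (0.00% of all genes) and 0 rose (0.0794%), again with 0 members at an unadjusted p under 0.05 (328 of all genes) and 0 by DESeq2. The mean log2 CPM of the 7 cell-cycle genes was 3.96 and 4.16 at 24 h, against 3.99 and 4.19 untreated in KO. Of the 41 members 8 (19.5%) had both KO libraries at 24 h below both untreated ones, beside 16.7% of all genes.

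Of the 10 genes that fell in WT, 3 (Aspn, Col11a1 and Fmod) had both KO libraries at 24 h below both untreated ones, and 0 had both above. Of all genes 16.7% had both below and 16.5% both above. Fbln5 had 468 and 563 CPM at 24 h, against 427 and 523 CPM untreated in KO, and Thbs2 had 516 and 781 CPM, against 421 and 632 CPM. Both overlapped the untreated libraries, with changes of 0.12 ± 0.41 for Fbln5 and 0.30 ± 0.31 for Thbs2. Thbs1 had 2259 and 2012 CPM at 24 h, against 2006 and 2527 CPM untreated, inside the untreated range (-0.09 ± 0.43). Aspn had 21.7 and 23.0 CPM at 24 h, against 28.5 and 32.9 CPM untreated, and Col11a1 had 71.7 and 67.0 CPM, against 85.4 and 112 CPM. Both were lower without overlap, by -0.45 ± 0.64 and -0.50 ± 0.55, and neither passed. Lox had 1109 and 1144 CPM, against 969 and 1433 CPM (-0.09 ± 0.17, 95% interval -0.45 to 0.27). The 95% interval of Thbs1 in KO ran from -0.97 to 0.80 and that of Fbln5 from -0.72 to 0.96.

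The difference between the KO and WT responses at 24 h was tested directly. Without the block 0 members differed (0.159% of all genes were lower in KO relative to WT and 0.106% higher), and DESeq2 called 0. An unadjusted p under 0.05 was found for 7 of the 41 members and for 870 of 11337 genes. The median difference of the members was 0.38, beside 0.00 over all genes, and 34 of 41 lay above 0. With the block 6 members had a higher response in KO (0.909% of all genes) and 0 a lower one (0.503%). These were Fbln5 (1.27 ± 0.19, adjusted p = 0.000863, 95% interval 0.87 to 1.67), Thbs2 (1.03 ± 0.17, 0.00289, 0.67 to 1.39), Col3a1 (1.22 ± 0.28, 0.0259, 0.65 to 1.80), Col5a1 (0.82 ± 0.19, 0.0284, 0.43 to 1.21), Aspn (2.25 ± 0.55, 0.0418, 1.10 to 3.40) and Col11a1 (1.22 ± 0.31, 0.0499, 0.58 to 1.86). Their adjusted p-values are thus from the blocked fit, and the same numbers in KO were not seen to pair. With the block kept to WT, chosen after seeing the data, 5 were higher in KO (1.06%), all of these but Aspn.

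Within the library set that holds both genotypes, KO against WT replicates 1 and 2, 3 members had a higher response in KO (0.397% of all genes) and 0 a lower one (0.573%). They were Fbln5 (1.32 ± 0.26, adjusted p = 0.0114), Col1a1 (1.37 ± 0.30, adjusted p = 0.0264) and Thbs1 (1.06 ± 0.24, adjusted p = 0.0289). Fbln5 therefore differed between KO and WT with the block and within the set. Lox, the member called most often in WT, differed by 0.56 ± 0.21 without the block (adjusted p = 0.499, 95% interval 0.12 to 1.003) and by 0.58 ± 0.19 with it (adjusted p = 0.160). Without WT replicate 1 the count was 0 in each direction (0.277% lower and 0.223% higher of all genes).

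**Figure D5:**
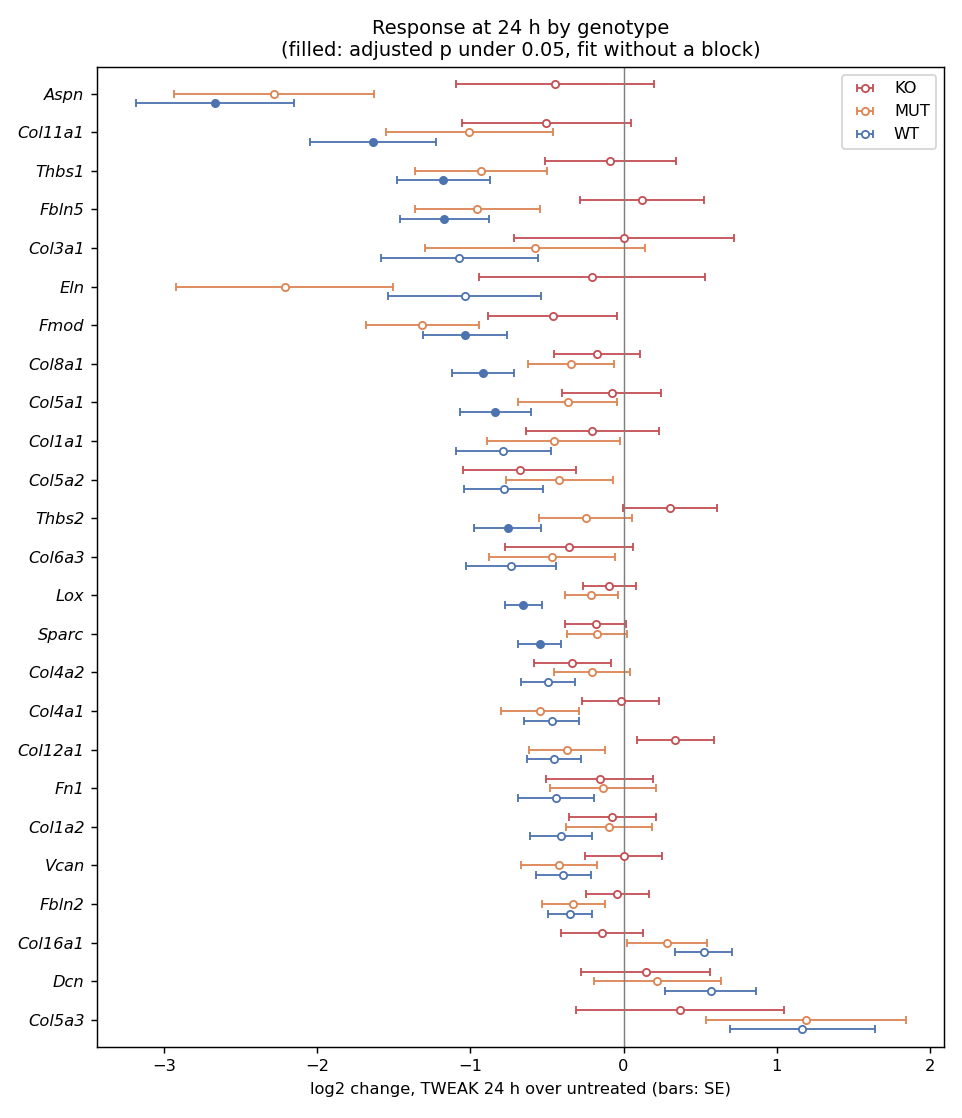
Log2 change between 24 h of TWEAK and untreated (x axis; bars give the SE) for the 25 members past the test in WT with or without the block (rows), in KO, MUT and WT; filled points passed in the fit without the block. WT points lie left of 0 for 22 members and right of it for Col16a1, Dcn and Col5a3, and 10 WT points but no KO or MUT point are filled.

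The MUT response at 24 h was not separated from the WT response for any member. Without the block 0 differed (0.00% of all genes in each direction) and DESeq2 called 0, while 1 of the 41 had an unadjusted p under 0.05, as did 507 of 11337 genes. With the block 0 differed (0.0353% lower and 0.0441% higher), while 8 of the 41 had an unadjusted p under 0.05, as did 960 of 11337 genes. All 7 fibrillar collagens had a difference above 0 (a smaller fall or larger rise in MUT), 3 of them at that unadjusted p in the blocked fit. Of the 10 other collagens 6 had a difference below 0. The contrast pools all 4 WT replicates, and replicates 1 and 2 lay in the other library set. Col1a1 changed by -0.49 and -0.42 in MUT, by -0.49 and -0.26 in WT replicates 3 and 4, and by -1.59 and -1.55 in WT replicates 1 and 2. The median difference of the 41 members was 0.11. For Fbln5 the difference was 0.20 with an interval of -0.20 to 0.59 in the blocked fit, for Thbs2 0.48 (0.12 to 0.84) and for Lox 0.44 (0.05 to 0.83). The intervals of Thbs2 and Lox lay above 0, and that of Fbln5 included 0. These intervals are not adjusted for the number of genes tested. Between MUT and KO 0 members differed without the block (0.00% in each direction), and DESeq2 called 0. An unadjusted p under 0.05 was found for 0 members and for 813 of 11337 genes. With the block 0 differed either (0.0265% lower and 0.0353% higher). With the block kept to WT Fbln5 was lower in MUT (-1.07 ± 0.22, adjusted p = 0.0379; 0.194% of all genes). That fit was chosen after seeing the data. The KO and MUT libraries lay in different library sets, so genotype and library set cannot be told apart in comparisons of MUT with KO. The comparisons of KO and of MUT with WT share the WT libraries.

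Genes outside the 42 were read from 3 lists. Of 25 tested genes that modify, trim or export collagen, 3 fell and 1 rose in WT at 24 h: Adamts2, which removes the amino propeptide of fibrillar procollagens (-1.02 ± 0.21, adjusted p = 0.00362), the lysyl hydroxylase Plod1 (-0.64 ± 0.17, adjusted p = 0.0234) and the endoplasmic reticulum chaperone Fkbp14 (-0.71 ± 0.20, adjusted p = 0.0379) fell, and Adamts14 rose (1.38 ± 0.33, adjusted p = 0.0121). With the block 10 of the 25 fell and 2 rose. Among all genes tested 3.19% fell and 3.68% rose, and with the block 7.59% and 8.02%. Of 35 other matrix genes 5 fell and 2 rose (10 and 4 with the block), beside the same shares of all genes. The falls were of the basement membrane genes Nid2 (-1.54 ± 0.18, adjusted p = 3.76e-06), Lamb2 (-0.99 ± 0.15) and Lamc1 (-0.69 ± 0.20), of Fbn2 (fibrillin-2, -2.42 ± 0.41) and of the proteoglycan gene Prelp (-1.36 ± 0.30), and the rises of Col18a1 (0.66 ± 0.18) and Ltbp2 (1.54 ± 0.40). Nid2 was also the gene of these lists whose response differed between KO and WT without the block (1.63 ± 0.31, adjusted p = 0.0192), with a change of 0.09 ± 0.25 in KO. Nid2 overlaps the protein-coding gene Rtraf on the opposite strand. Since use of strand in counting is not stated, reads of this pair cannot be told apart.

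Of 22 genes of the TGF-beta pathway and its targets, a pathway that drives collagen transcription in fibroblasts, 7 rose and 0 fell at 6 h in WT, beside 4.35% and 2.06% of all genes. With the block 7 rose and 2 fell (6.69% and 4.90%). Those that rose without the block included Tgfb1 (0.95 ± 0.20, adjusted p = 0.00406), Ccn2 (2.13 ± 0.55, adjusted p = 0.0196) and Ccn1 (1.28 ± 0.34, adjusted p = 0.0258). In WT replicates 1 and 2 alone Ccn2 changed by -0.17, and the difference between the library sets was not tested. At 24 h 1 of the 22 fell (Smad6, an inhibitor of the related BMP pathway, -1.11 ± 0.24, adjusted p = 0.00468) and 1 rose (Ltbp2, which the list of other matrix genes holds too). Beside them 3.19% of all genes fell and 3.68% rose. With the block 5 fell and 2 rose, beside 7.59% and 8.02% of all genes.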

How the data were processed

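The labels describe bulk MARS-seq libraries with UMIs, each from 50 ng of total RNA that had been isolated with 1 of 2 kits (the kit of each sample is not given). Tools named in the submitters' processing notes are cutadapt, HTSeq, DESeq2 and STAR 2.7.10a, with the build GRCm38. The authors deposited whole-number UMI counts per gene and library, without normalisation, for genes whose highest count is 6 or more, together with their log2 fold changes and adjusted p-values for comparisons of groups. The early time is 6 h in the sample descriptions and 3 h in the library names, and is written as 6 h.

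The main analysis used edgeR 4.0.16 (R 4.3.3): filterByExpr by group (2142 genes left out), TMM, all 24 libraries in 9 groups fitted by glmQLFit, 11 contrasts tested by the quasi-likelihood F test, and Benjamini-Hochberg adjustment over all 11337 genes at a threshold of 0.05. Member rows were then read from that table. Intervals are 95%, and 2 counts were added for log2 CPM. Library depth was 889863 to 4342981 UMIs, and a count of 0 allows up to 3 counts. Counting error alone is covered by such floors.

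Pairing by replicate number was checked over 7289 genes from deviations from group means. Same-numbered WT libraries correlated at 0.328 to 0.688, and the block is shown beside the results. Differently numbered WT libraries correlated at 0.016 to 0.24 between replicates 1 and 2, at 0.242 to 0.505 between 3 and 4, and at -0.598 to -0.231 across the library sets, and untreated replicate 4 with replicate 3 at 6 h (0.441) exceeded replicate 3 with itself (0.328). The values were 0.00108 to 0.071 in MUT and -0.282, -0.134 and 0.0996 in KO, where pairing was not seen.

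The 42 members, the lists and the tests were chosen with earlier results of these data known. Values in every library are given for members past the test in WT at 24 h by smallest adjusted p, for Col1a1, Col1a2, Col3a1, Fn1 and Sparc, and for members that differed between genotypes; further genes named by value, among them Eln, Mfap4 and Thbs1 at 6 h, were picked after their values were seen. Gene positions are from GENCODE on GRCm38, and promoters are from RefSeq. The alternatives were the replicate block, RLE, library totals, normalisation without the members, no filter, fits of the groups compared, library sets, DESeq2 1.42.0 and leaving out each library.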

Additional observations from a re-analysis of the deposited data

Results flagged for a closer look

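In 6 of 84 groups of 4 WT libraries looked at over 28 genes, 1 library stood apart from the other 3. Chance flags about 1 in 20 such groups. At 6 h replicate 1 was low for Col3a1 (302.4 CPM, the others 2000 to 2338), Col5a2 (21.34 CPM, the others 63.52 to 71.69) and Col6a3 (233.6 CPM, the others 604.6 to 645.5), and at 24 h for Fbln2 (1700 CPM, the others 2017 to 2080). Among untreated WT libraries, Aspn was high in replicate 2 (55.33 CPM, the others 15.99 to 21.22) and Col12a1 was high in replicate 3 (225 CPM, the others 140.3 to 147.3). Replicate 1 had the lowest share of UMIs in the members, and without it 16 members fell in WT at 24 h instead of 10.

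Responses at 24 h that differed between KO and WT by a test of the difference itself were those of Nid2 without the block (1.633) and, with the block, of Aspn (2.248), Fbln5 (1.269), Col3a1 (1.224), Col11a1 (1.219), Thbs2 (1.028) and Col5a1 (0.8215), all KO minus WT on the log2 scale. None of the 6 members passed without the block (adjusted p from 0.432 for Thbs2 to 0.841 for Col3a1).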

How the results depend on the processing

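Of the members, 10 fell and 0 rose in WT at 24 h. With the replicate block 22 fell and 3 rose, with the block kept to WT 21 and 3, with the KO numbers crossed in the block 22 and 3, and without WT culture 1 16 and 1. Fitted on the groups compared alone 4 fell, and with the library sets 5 fell in WT replicates 3 and 4. Leaving out 1 library gave 5 to 11 falls and 0 to 2 rises, with 5 without untreated WT replicate 4, 6 without untreated WT replicate 2 and 6 without WT replicate 1 at 24 h. At 6 h 1 rose in WT. The count was 5 with the replicate block, with it kept to WT and with it crossed, 0 on the groups compared alone and 3 in WT replicates 3 and 4; in WT replicates 1 and 2 it was 0, and 1 fell. Leaving out 1 library gave 0 to 1. Shares of all genes are not given for the 6 h counts within the library sets. Most fits that left out 1 library also stand without such a share. Those counts are therefore not set against the rate over all genes. In MUT at 6 h the rises numbered 0 and became 3 with the replicate block, 3 crossed, 2 kept to WT, 2 with the library sets and 8 on the groups compared alone. In MUT at 24 h 0 fell and 0 rose. These became 6 and 1 with the replicate block, crossed or kept to WT, 11 and 1 on the groups compared alone, and 5 falls with the library sets. Higher KO minus WT responses numbered 0, and 6 with the replicate block, 6 crossed, 5 kept to WT and 3 against WT replicates 1 and 2. Lower MUT minus KO responses numbered 0, and 1 with the block kept to WT or crossed. The block changed no other count of members, and its counts for the lists of other genes stand beside their results. It was not fitted to the untreated comparisons, where replicate and genotype cannot be told apart. The crossed block, the block kept to WT and the fit without WT culture 1 were chosen after seeing the data. Counts in KO were 0 under every setting run, and other counts stayed within 1.5 times. The cause of these shifts was not tested.

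Some signs reversed. With the library sets, WT replicates 1 and 2 at 6 h gave -0.12 for Mfap4 and -0.17 for Ccn2, and MUT minus WT replicates 3 and 4 gave -0.12 for Aspn. Leaving out 1 library turned the sign of some responses, given here as lowest and highest. In KO at 24 h the values were -0.22 and 0.0724 for Col5a1, -0.37 and 0.0462 for Col8a1, -0.0232 and 0.27 for Fbln5, -0.35 and 0.22 for Lox, -0.36 and 0.0179 for Sparc, -0.25 and 0.0906 for Thbs1 and -0.0290 and 0.62 for Thbs2. In MUT minus WT they were -0.22 and 0.92 for Aspn, -0.13 and 0.48 for Fbln5 and -0.61 and 0.11 for Fmod. Depth limits members with few UMIs, such as Aspn (53 in WT at 24 h), Lum (9 to 15 per KO group) and Col15a1 (2 to 6 per KO group).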
